A study of Mus musculus with 8 samples.

Results

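The 9 genes described here carry the main steps of iron handling in a macrophage: uptake (Tfrc, Steap3), transport out of endosomes and phagosomes (Slc11a2, Slc11a1), storage (Fth1, Ftl1), export (Slc40a1) and control (Aco1, Ireb2). They were picked by symbol out of 24421 genes in a table of read counts scaled to a common library size (CPM), and all 9 passed the filter on low values that left 12194 genes for testing. Their lowest read count in any library was 959, for Steap3. RNA was sequenced from mouse macrophages grown out of bone marrow (BMMs). Rbpj encodes RBP-J, the nuclear protein through which Notch receptors act on DNA. The libraries formed 4 groups of 2: Rbpj f/f;LysMCre knockout (KO) cells after 2 days with TNF at 40 ng/ml, KO cells at day 0, wild-type (WT) cells after the same 2 days with TNF, and WT cells at day 0. LysM-Cre acts in myeloid cells. The age and sex of the mice, and whether WT mice carried floxed alleles or Cre, are not given in the sources used here. There was no 2-day culture without TNF, which means that TNF and culture time cannot be told apart, and "with TNF" below includes both. The series design gives 2 independent experiments, but no label says that the replicate number marks the experiment. Whether a group's libraries stem from different mice is not given in the sources used here, and the p-values speak only of the spread among libraries, which may be technical.

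Iron bound to transferrin enters cells with the transferrin receptor TFR1 (Tfrc), is reduced in the endosome by STEAP3, and crosses into the cytosol through DMT1 (Slc11a2). What is not used is stored in ferritin, a shell of heavy (Fth1) and light (Ftl1) chains, or leaves through ferroportin (Slc40a1), the known iron exporter of mammalian cells. Macrophages recycle iron from old red cells and are known for high ferroportin, and their phagosomes carry the metal transporter NRAMP1 (Slc11a1). The iron regulatory proteins IRP1 (Aco1) and IRP2 (Ireb2) bind RNA hairpins called iron-responsive elements: at the 5′ end of an mRNA they block its translation when iron is low, and in the 3′ UTR they protect it from decay. RNA counts can show the second kind of control and not the first.

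Of the 9 genes, 4 hold a hairpin that met a strict search of GENCODE M21 transcripts (GRCm38). The search asked for the loop CAGTGN, an unbroken upper stem of 5 base pairs around it, and an unpaired C just before that stem. It passes over imperfect forms, such as the element known in a 3′ UTR of Slc11a2, so the lack of a match says nothing about a gene. The matches are shown because their place, in the 3′ UTR of Tfrc and the 5′ UTR of Fth1, Ftl1 and Slc40a1, goes with the kinds of control described above, and capitals mark the 6-base loop. Each is on the transcript's strand, 5′ to 3′.
Fth1, 5′ UTR, chr19:9982732-9982760, + strand: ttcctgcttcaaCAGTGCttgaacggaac
Ftl1, 5′ UTR, chr7:45459779-45459807, - strand: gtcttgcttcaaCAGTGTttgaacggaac
Slc40a1, 5′ UTR, chr1:45925465-45925493, - strand: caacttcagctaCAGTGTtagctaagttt
Tfrc, 3′ UTR, chr16:32631219-32631247, + strand: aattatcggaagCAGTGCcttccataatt
Tfrc, 3′ UTR, chr16:32631598-32631626, + strand: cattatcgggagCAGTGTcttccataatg
Tfrc, 3′ UTR, chr16:32631663-32631691, + strand: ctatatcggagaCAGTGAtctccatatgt
Tfrc, 3′ UTR, chr16:32631710-32631738, + strand: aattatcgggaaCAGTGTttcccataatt
From the unpaired C to the end of the upper stem, the Fth1 and Ftl1 hairpins share 16 of 17 bases, and the 4 Tfrc hairpins share 11 to 15 of 17 with each other. The Slc40a1 hairpin shares 10 of 17 bases with that of Fth1 and 11 of 17 with that of Ftl1. The same search found a match in a 5′ UTR of 0.128% and in a 3′ UTR of 0.582% of 21840 protein-coding genes. A match is a description of letters and pairing, not a measured binding site.

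The targeted gene, Rbpj, had 30.0 and 21.4 CPM in KO cells with TNF and 38.9 and 31.8 CPM in KO cells at day 0, against 226 and 178 CPM in WT cells with TNF and 215 and 216 CPM in WT cells at day 0. Libraries held 9855859 to 35653203 reads in genes, with the fewest in KO cells with TNF, replicate 1. Of 8 macrophage-defining genes all were detected, and they summed to between 4998 and 9280 CPM in every library. Lyz2, one of them, had only 7.25 to 102 CPM; Lyz1 is a near-identical copy, and how shared reads were counted is not given in the sources used here. Osteoclast markers, 10 genes, summed to 18804 and 45864 CPM in KO cells with TNF, against 151 and 248 CPM in KO cells at day 0, and to 6579 and 4965 CPM in WT cells with TNF, against 144 and 220 CPM in WT cells at day 0. Erythroid markers, of interest because red-cell precursors are rich in Tfrc, summed to at most 2.44 CPM, and 6 of 11 (5 globin genes and Slc4a1) were listed at 0. How reads shared between globin genes were counted is not given either, so the globin values of 0 may not mean absence. Neutrophil markers summed to 63.4 to 230 CPM in the 4 libraries with TNF, against 190 to 1113 CPM at day 0. Stromal markers summed to 117 to 179 CPM in replicate 1 of each group and 4.49 to 33.2 CPM in replicate 2. In bulk RNA, fewer cells of a type and less RNA per cell cannot be told apart.

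**Figure D1:**
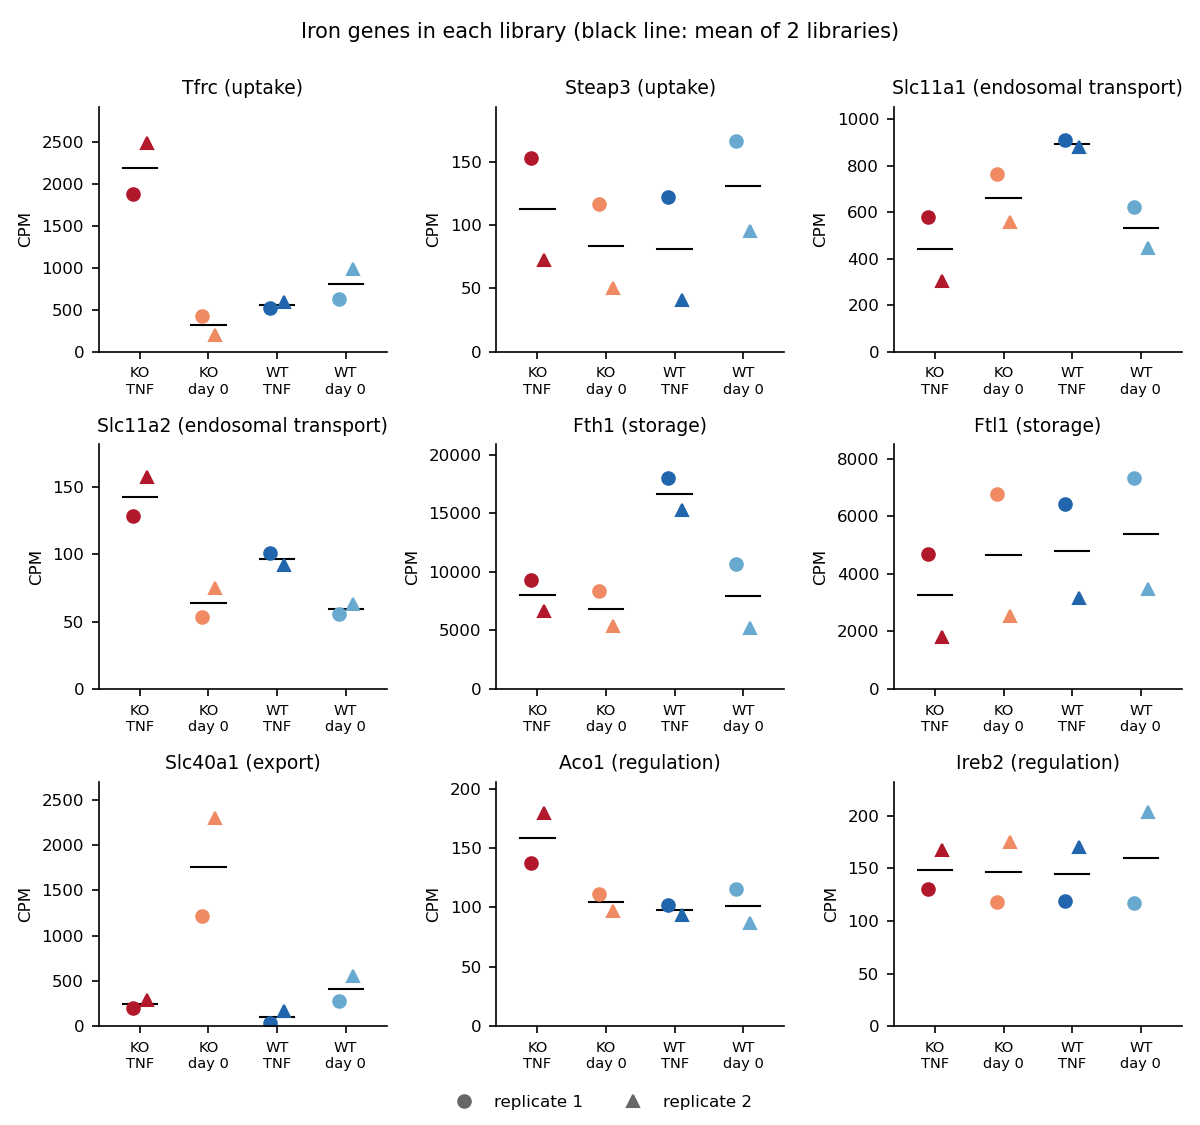
CPM of each iron gene in the 8 libraries (circles, replicate 1; triangles, replicate 2; black line, mean of 2), with KO with TNF, KO at day 0, WT with TNF and WT at day 0 from left to right. Tfrc had 1882 and 2485 CPM in the KO libraries with TNF and at most 982 CPM in the other 6, Fth1 stood highest in both WT libraries with TNF, and Slc40a1 stood highest in both KO libraries at day 0.

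Differences were tested with limma on log2(CPM + 0.5), and p-values were adjusted over all tested genes. The differences between replicates 2 and 1 correlated across all genes between groups (Pearson r 0.577 to 0.805), though Tfrc, Slc11a2 and Aco1 did not share 1 direction in all 4 groups. A second fit therefore gave the replicate number a term of its own, called the block below. Tfrc (ENSMUSG00000022797.16, GRCm38 chromosome 16, 32608920 to 32632794), the receptor for iron-loaded transferrin, was the one member to pass a limma test over all 8 libraries without the block, higher with TNF in KO cells. It had 1882 and 2485 CPM in KO cells with TNF, against 431 and 194 CPM in KO cells at day 0. In WT cells it had 524 and 597 CPM with TNF, against 627 and 982 CPM at day 0. The KO libraries with TNF thus stood above all others and the KO libraries at day 0 below all others, while WT with TNF lay below WT at day 0 with no overlap. Within KO cells Tfrc rose with TNF by 2.90 ± 0.44 on the log2 scale (moderated SE, n = 2 libraries each), which is 7.46-fold (limma adjusted p = 0.0206). DESeq2, also run without the block, passed 3 of the 9 genes in that comparison, against 13.9% of all genes. By limma without the block, Tfrc was the only one of the 9 genes to pass an adjusted p of 0.05 there, and 5.10% of all tested genes passed. The call was lost without KO with TNF replicate 1 (limma adjusted p = 0.0643) or replicate 2 (0.126), without KO at day 0 replicate 2 (0.0966), and when only the KO libraries were fitted (0.0882). With the block, the adjusted p ran from 0.00627 to 0.0381 over the 8 libraries left out in turn, and the log2 change from 2.12 without KO at day 0 replicate 2 to 3.68 without KO at day 0 replicate 1. In WT cells the change with TNF was -0.49 ± 0.44 (limma adjusted p = 0.837; 95% interval with the block -1.5 to 0.52). Osteoclast markers were highest in the same KO libraries with TNF. Cell-cycle markers, 12 genes, summed to 1552 and 419 CPM in KO cells with TNF, against 3098 and 1419 CPM in KO cells at day 0. In WT cells they summed to 1900 and 800 CPM with TNF, against 3226 and 3104 CPM at day 0. The part of either list in the Tfrc differences, with TNF or between genotypes, was not tested.

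Between genotypes, Tfrc was 3.87-fold higher in KO than in WT cells with TNF, a log2 difference of 1.95 ± 0.44. It did not pass without the block (limma adjusted p = 0.194) and passed with it (0.0403), in a comparison where 0.00820% of all genes passed without the block and 9.28% with it. With the block, it did not pass after median-ratio rescaling (limma adjusted p = 0.0547) and passed after quantile normalization (0.0414). The blocked call was lost in 6 of the 8 fits that left out a library (adjusted p 0.0517 to 0.233) and kept without KO at day 0 replicate 1 or 2; edgeR with the block, which called 6.65% of all genes, did not call it (adjusted p = 0.0669). At day 0 the sign was the other way: Tfrc was 0.369 times its WT level in KO cells (log2 difference -1.44 ± 0.44), in both replicates (-0.54 and -2.33). That difference did not pass (limma adjusted p = 1.0, and 0.597 with the block). The difference of the 2 TNF responses was 3.39 ± 0.63 for Tfrc (limma adjusted p = 0.641, and 0.104 with the block; DESeq2 adjusted p = 0.00408, with 0.648% of all genes called), and 0.00% of all genes passed limma there, with or without the block (2 members, and 5.65% of all genes, had an unadjusted p under 0.05 without it).

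Steap3 (ENSMUSG00000026389.16, chromosome 1, 120190757 to 120272705), the endosomal ferric reductase that works beside the receptor, passed no limma test on the CPM as deposited, without or with the block. It had 153 and 72.5 CPM in KO cells with TNF, against 117 and 50.5 CPM in KO cells at day 0. WT cells had 122 and 40.7 CPM with TNF, against 166 and 95.4 CPM at day 0. Replicate 1 stood above replicate 2 in every group, and the groups overlapped in all 4 comparisons. Within a replicate number, KO cells had more Steap3 with TNF than at day 0 (log2 differences 0.39 and 0.52), and WT cells had less (-0.44 and -1.22). The limma adjusted p with the block was 0.146 in KO and 0.0518 in WT cells. After median-ratio rescaling or quantile normalization with the block, the WT change passed (adjusted p = 0.0497 and 0.0434).

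The set holds 2 metal transporters of the same family, 1 called with TNF in KO cells and 1 between genotypes, both in the blocked fit. Slc11a2 (ENSMUSG00000023030.16, chromosome 15, 100387898 to 100425072), which carries ferrous iron out of the endosome, had 129 and 157 CPM in KO cells with TNF, against 53.2 and 74.9 CPM in KO cells at day 0. Values in WT cells were 101 and 92.3 CPM with TNF, against 56.0 and 62.9 CPM at day 0. All 4 libraries with TNF lay above all 4 at day 0, and KO with TNF lay above WT with TNF. In KO cells the log2 change with TNF was 1.17 ± 0.26, or 2.24-fold (limma adjusted p = 0.0563 without the block and 0.00688 in the blocked fit, where 25.9% of all genes passed). This call was lost without KO at day 0 replicate 1 (adjusted p = 0.0541). In WT cells the change was 0.70 ± 0.26 and did not pass (limma adjusted p = 0.331, and 0.0603 with the block). The TNF responses in the 2 genotypes differed by 0.47 ± 0.36 (95% interval with the block -0.15 to 1.08), so a larger response in KO cells was not shown.

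Slc11a1 (NRAMP1; ENSMUSG00000026177.11, chromosome 1, 74375195 to 74386062), which moves metal ions across the phagosome membrane of macrophages, had 581 and 305 CPM in KO cells with TNF, against 763 and 560 CPM in KO cells at day 0. WT cells had 910 and 881 CPM with TNF, against 621 and 445 CPM at day 0. WT cells with TNF stood highest of the 4 groups, and KO cells with TNF held the lowest library. With TNF, Slc11a1 in KO cells was 0.470 times its WT level (log2 difference -1.09 ± 0.38; limma adjusted p = 0.338 without the block, 0.0402 in the blocked fit). That call was kept only without KO with TNF replicate 1 and lost for each of the 7 other libraries left out (adjusted p 0.0558 to 0.274), and edgeR with the block did not make it (adjusted p = 0.0576). Of the 8 macrophage-defining genes, 3 were lower in the same comparison with the block and none without it, against 3.75% and 0.00% of all genes. The part of the macrophage-defining genes in the Slc11a1 difference was not tested. The change with TNF was -0.63 ± 0.38 in KO cells and 0.77 ± 0.38 in WT cells, neither of which passed (limma adjusted p = 0.446 and 0.526, and 0.0915 and 0.0870 with the block). With the block, the KO change passed after quantile normalization (limma adjusted p = 0.0462) and not after median-ratio rescaling (0.149). The WT change passed after neither (0.0969 and 0.0836). The ratio of Slc11a1 to Slc11a2 CPM was 4.51 and 1.94 in KO cells with TNF, against 14.3 and 7.47 in KO cells at day 0, and 8.98 and 9.55 in WT cells with TNF, against 11.1 and 7.08 in WT cells at day 0.

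The ferritin chains were the most abundant mRNAs of the set. Exon length was taken over all annotated transcripts of a gene, 3469 bases for Fth1 and 1340 for Ftl1. It can exceed the length of the mRNA present and so understate a gene's level. Per kilobase of exon, Fth1 ran from 1500 to 5192 CPM and Ftl1 from 1359 to 5460 CPM over the 8 libraries. By the same measure Tfrc ran from 31.4 to 402, Slc11a1 from 82.3 to 246 and Slc40a1 from 3.80 to 256 CPM per kilobase, and Steap3, Slc11a2, Aco1 and Ireb2 all lay between 7.12 and 39.9. Together the 2 ferritin genes took 1.40% and 0.846% of gene reads in KO cells with TNF, against 1.51% and 0.790% in KO cells at day 0, and 2.44% and 1.84% in WT cells with TNF, against 1.80% and 0.867% in WT cells at day 0. Ferritin genes have processed pseudogenes, and how reads shared with them were counted is not given in the sources used here.

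Fth1 (ENSMUSG00000024661.7, chromosome 19, 9980598 to 9985098), the chain that oxidises iron for storage, had 9344 and 6640 CPM in KO cells with TNF, against 8338 and 5347 CPM in KO cells at day 0. The WT values were 18009 and 15247 CPM with TNF, against 10704 and 5203 CPM at day 0. It was the most abundant gene of the table in both WT libraries with TNF and in KO with TNF replicate 1, and its 2 values in WT cells with TNF lay above the other 6. The change with TNF in WT cells was 1.15 ± 0.55, or 2.22-fold (limma adjusted p = 0.499, and 0.0983 with the block), and in KO cells 0.24 ± 0.55 (0.896 and 0.668). KO against WT with TNF differed by -1.07 ± 0.55 (limma adjusted p = 0.561, and 0.121 with the block). None of these passed, although the log2 difference with TNF was positive in both replicates of WT cells (0.75 and 1.55) and the genotype difference negative in both (-0.95 and -1.20).

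Ftl1 (ENSMUSG00000050708.16, chromosome 7, 45457944 to 45459884), the light chain that helps form the mineral core, passed no limma test without or with the block. It had 4678 and 1821 CPM in KO cells with TNF, against 6778 and 2551 CPM in KO cells at day 0. WT libraries stood at 6412 and 3155 CPM with TNF, against 7316 and 3466 CPM at day 0. Replicate 1 was above replicate 2 by more than 1 log2 unit in every group, a wider gap than any between group means. The changes with TNF were -0.51 ± 0.75 in KO and -0.16 ± 0.75 in WT cells, with 95% intervals under the block of -1.17 to 0.15 and -0.82 to 0.50. The ratio of Fth1 to Ftl1 CPM was 2.00 and 3.65 in KO cells with TNF, against 1.23 and 2.1 in KO cells at day 0, and 2.81 and 4.83 in WT cells with TNF, against 1.46 and 1.5 in WT cells at day 0. Within each replicate number that ratio was higher with TNF in both genotypes; it was not tested.

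The exporter Slc40a1 (ENSMUSG00000025993.10, chromosome 1, 45908068 to 45926523) had the widest range of the set, with group means spread over 4.46 log2 units. It had 197 and 285 CPM in KO cells with TNF, against 1217 and 2300 CPM in KO cells at day 0. In WT cells it had 34.2 and 167 CPM with TNF, against 282 and 550 CPM at day 0. In each genotype the libraries with TNF lay wholly below those at day 0, and at each time the KO libraries lay wholly above the WT ones. The change with TNF was -2.82 ± 0.77 in KO cells, to 0.142 of the day 0 level (limma adjusted p = 0.0949, and 0.00468 with the block). In WT cells it was -2.37 ± 0.77, to 0.193 of the day 0 level (limma adjusted p = 0.262, and 0.0167 with the block, where 10.3% of all genes passed, against 1.18% without it). Slc40a1 was the 1 member to pass with the block in WT cells. The KO call with the block held for each library left out (adjusted p 0.00238 to 0.0340), while the WT call was lost without WT at day 0 replicate 1 (0.0621) or replicate 2 (0.0923). With the block, the KO change ran from -2.39 to -3.24 over the libraries left out, and the WT change from -1.64 without WT with TNF replicate 1, the lowest library, to -3.10 without WT with TNF replicate 2. Osteoclast markers were higher with TNF in both genotypes, and their part in the Slc40a1 difference was not tested.

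At day 0, Slc40a1 was 4.25-fold higher in KO than in WT cells, a log2 difference of 2.09 ± 0.77 that was nearly equal in replicate 1 (2.11) and replicate 2 (2.06). It did not pass (limma adjusted p = 1.0, and 0.317 with the block); 0.00% of all genes passed that comparison without the block and 0.00820%, Rbpj alone, with it. With TNF it was 3.11-fold higher in KO cells (1.64 ± 0.77; limma adjusted p = 0.511, and 0.0511 with the block). The TNF responses in the 2 genotypes differed by -0.45 ± 1.08 (95% interval with the block -1.78 to 0.88). Taking import and export mRNAs together, the ratio of Tfrc to Slc40a1 CPM was 9.56 and 8.72 in KO cells with TNF, against 0.354 and 0.0845 in KO cells at day 0, and 15.3 and 3.58 in WT cells with TNF, against 2.23 and 1.79 in WT cells at day 0. The ratio was above 1 in 6 libraries and below 1 in the 2 KO libraries at day 0.

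**Figure D2:**
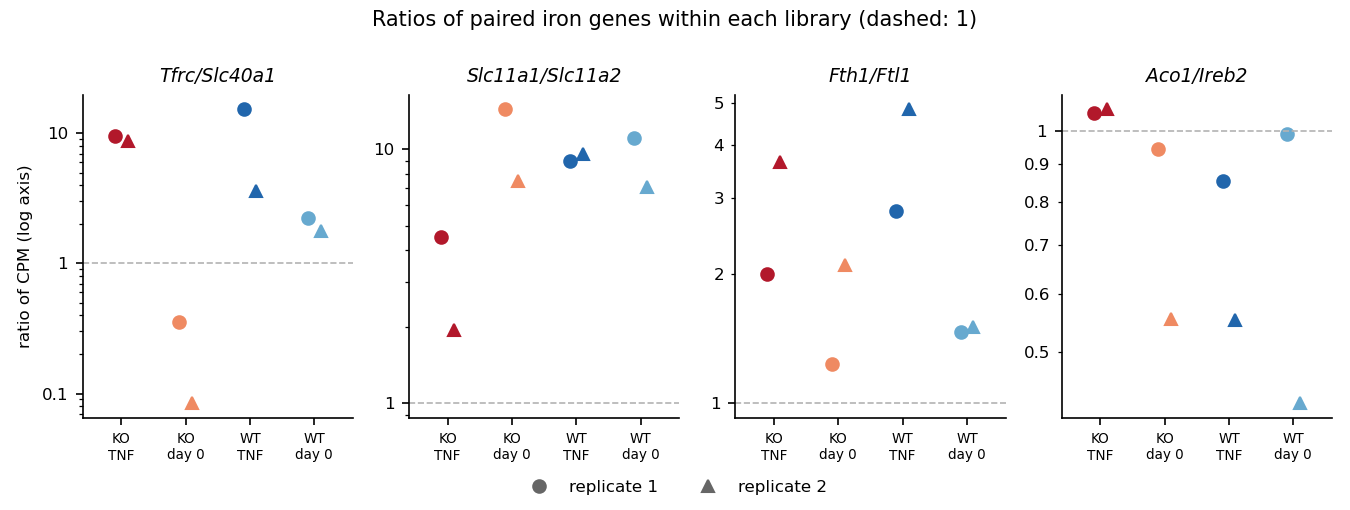
Ratio of the CPM of 2 genes within each library, on log axes, for Tfrc over Slc40a1, Slc11a1 over Slc11a2, Fth1 over Ftl1 and Aco1 over Ireb2 (circles, replicate 1; triangles, replicate 2; dashed line, a ratio of 1). Tfrc over Slc40a1 was below 1 in KO cells at day 0 only, and Slc11a1 over Slc11a2 was lowest in KO cells with TNF.

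The 2 regulators had the smallest ranges of group means, at 0.68 and 0.12 log2 units, and neither passed limma in any comparison. Aco1 (ENSMUSG00000028405.9, chromosome 4, 40143081 to 40198338), which encodes IRP1 and is a cytosolic aconitase when it holds an iron-sulfur cluster, had 137 and 179 CPM in KO cells with TNF, against 111 and 97.0 CPM in KO cells at day 0. In WT cells there were 102 and 93.9 CPM with TNF, against 116 and 86.5 CPM at day 0. Both KO libraries with TNF lay above the other 6, but neither the change with TNF in KO cells (0.59 ± 0.26; limma adjusted p = 0.278, and 0.0835 with the block) nor the genotype difference with TNF (0.68 ± 0.26; 0.390 and 0.0948) passed. Ireb2 (ENSMUSG00000032293.8, chromosome 9, 54863789 to 54912530), which encodes IRP2, the protein degraded when iron is plentiful, had 130 and 168 CPM in KO cells with TNF, 118 and 175 CPM in KO cells at day 0, 119 and 170 CPM in WT cells with TNF and 117 and 203 CPM in WT cells at day 0. Its groups overlapped in every comparison. With the block, the 95% intervals of its changes with TNF were -0.34 to 0.41 in KO and -0.49 to 0.26 in WT cells.

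**Figure D3:**
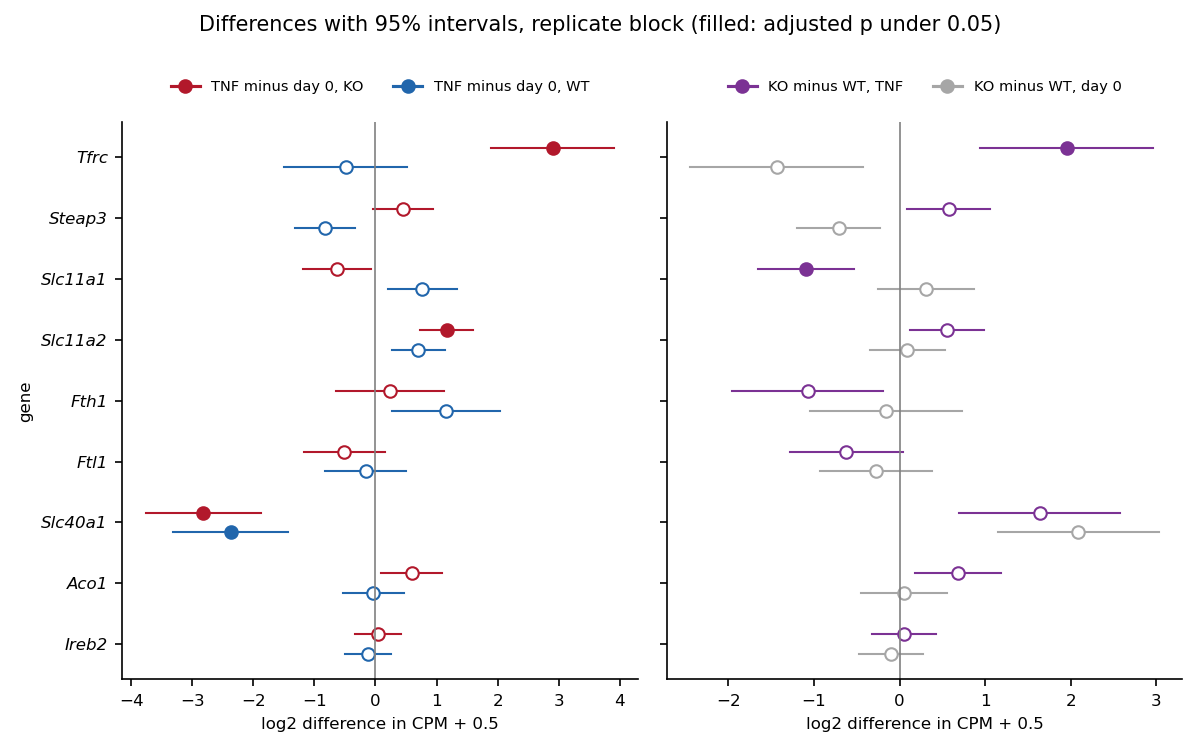
Log2 differences of the 9 genes with 95% intervals from the fit with the replicate block; left, TNF minus day 0 in KO (red) and WT (blue) cells; right, KO minus WT with TNF (purple) and at day 0 (grey). Filled points had an adjusted p under 0.05 in that fit: Tfrc, Slc11a2 and Slc40a1 in KO cells and Slc40a1 in WT cells with TNF, and Tfrc and Slc11a1 between genotypes with TNF.

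Counted over the set, 1 of the 9 genes passed higher with TNF in KO cells without the block, where 5.10% of all genes passed, and 2 higher and 1 lower with it, where 25.9% of all genes passed. In WT cells none passed without the block and 1 lower with it, against 1.18% and 10.3% of all genes. By edgeR without the block 1 of the 9 passed in KO and 0 in WT cells, against 4.08% and 0.492% of all genes. DESeq2 passed 3 and 0, against 13.9% and 7.17%, and edgeR with the block 3 and 2, against 25.2% and 9.54%. At an unadjusted p under 0.05 without the block, 3 genes stood out with TNF in KO cells and 2 in WT cells, 2 between genotypes at day 0 and 3 with TNF, against 19.5%, 12.1%, 1.34% and 11.3% of all genes. The median log2 change of the 9 genes with TNF was 0.24 in KO and -0.12 in WT cells, against -0.10 and -0.12 over all 12194 genes. In WT cells the median of all genes moved to -0.01 after median-ratio rescaling, which raised each member's value by about as much (Slc40a1 to -2.26, Slc11a2 to 0.81 and Fth1 to 1.26) and turned that of Aco1 from -0.03 to 0.08. The groups did not overlap for 4 of the 9 genes with TNF in KO cells, 5 in WT cells, 2 between genotypes at day 0 and 6 with TNF, where this held for 45.7%, 37.4%, 18.5% and 34.9% of all genes.

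The libraries numbered 2 differed from those numbered 1 in the same direction in all 4 groups for 6 of the 9 genes. Replicate differences correlated between groups across all genes, and the share of all genes with 1 direction is not given here. The count is therefore not read as particular to the iron genes. Ftl1, Steap3, Fth1 and Slc11a1 were lower in replicate 2 of every group, with median log2 differences of -1.22, -1.14, -0.57 and -0.46. Slc40a1 and Ireb2 were higher in replicate 2 of every group, with medians of 0.94 and 0.54. For Tfrc, 3 groups were higher in replicate 2, and KO cells at day 0 were lower by a log2 difference of -1.15.

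**Figure D4:**
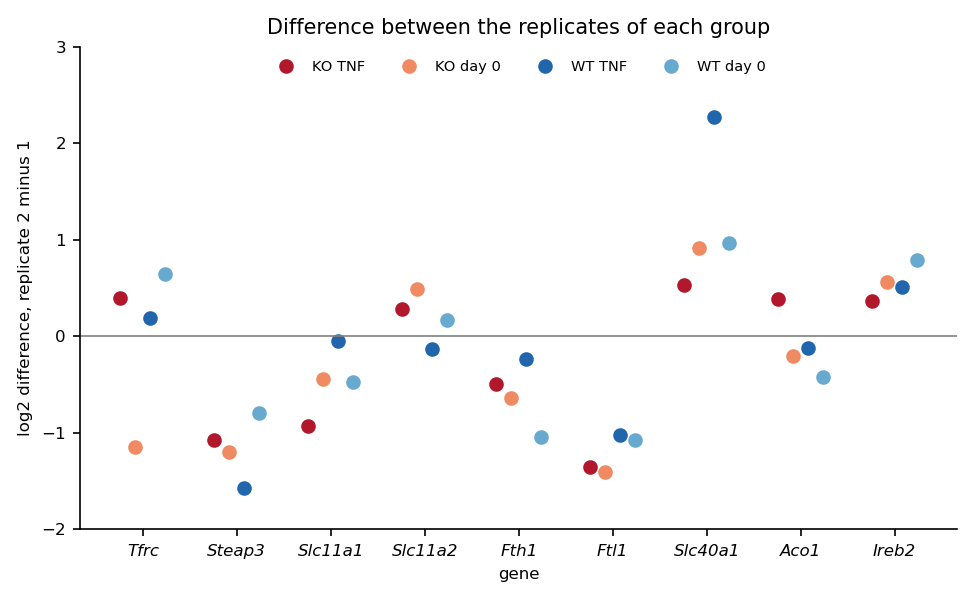
Log2 difference between replicate 2 and replicate 1 (of CPM + 0.5) for each iron gene in the 4 groups, coloured by group. Ftl1 was lower in replicate 2 by 1.02 to 1.41 log2 units in every group, and Slc40a1 was higher by 0.53 to 2.27.

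Genes that act around this set were then described from lists of iron, heme and iron-sulfur genes. For all tested genes, 3.09% rose and 2.01% fell with TNF in KO cells (12.2% and 13.7% with the block), and 0.812% rose and 0.369% fell in WT cells (5.54% and 4.71% with the block). Of 25 other genes of iron transport and regulation, 15 were tested: in KO cells 4 fell with TNF and none rose (7 and 3 with the block), and in WT cells 1 fell (6 fell and 2 rose with the block). Trf, transferrin itself, had 34.8 and 19.5 CPM in KO cells with TNF, against 191 and 332 CPM in KO cells at day 0. WT cells had 28.4 and 27.3 CPM with TNF, against 132 and 143 CPM at day 0. Its level thus fell in KO cells (log2 change -3.25 ± 0.37, limma adjusted p = 0.00909), and in WT cells its change of -2.28 ± 0.37 passed with the block (limma adjusted p = 0.0503 without it and 0.0128 with it). Hfe, whose protein binds TFR1, had 10.3 and 9.97 CPM in KO cells with TNF, against 58.0 and 113 CPM in KO cells at day 0 (-2.93 ± 0.36, limma adjusted p = 0.0110). Its change in WT cells, -1.36 ± 0.36, passed with the block (adjusted p = 0.171 without it and 0.0352 with it). Epas1, the hypoxia-inducible factor HIF-2alpha, whose mRNA is itself under iron regulatory proteins, fell in KO cells (-2.26 ± 0.47, limma adjusted p = 0.0482) and in WT cells (-3.24 ± 0.47, adjusted p = 0.0386). Ltf, the iron-binding lactoferrin of neutrophil granules, was at 0.710 and 1.11 CPM in KO cells with TNF, against 29.7 and 141 CPM in KO cells at day 0 (limma adjusted p = 0.0302). Its change in WT cells, -4.98 ± 0.98, passed with the block (adjusted p = 0.0799 without it and 0.00542 with it). Lcn2, a siderophore-binding protein named here after its values were seen, was among the genes that fell with the block (adjusted p = 0.00318 in KO and 0.0115 in WT cells). Ltf and Lcn2 are both also on the neutrophil list, whose summed level was lower with TNF in every pair of the same genotype and replicate; the part of neutrophils was not tested.

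Of 10 tested genes of heme uptake, breakdown and export, 1 rose with TNF in WT cells (4 with the block) and none in KO cells (1 higher and 1 lower with the block). Hp, haptoglobin, which binds free haemoglobin, had 40.3 and 37.0 CPM in KO cells with TNF, against 2.25 and 10.8 CPM in KO cells at day 0 (log2 change 2.81 ± 0.72, limma adjusted p = 0.0797 without the block and 0.0147 with it). In WT cells it had 375 and 315 CPM with TNF, against 2.11 and 6.05 CPM at day 0 (log2 change 6.38 ± 0.72, limma adjusted p = 0.0211). Hmox1, heme oxygenase, which frees iron from heme, had 1008 and 538 CPM in KO cells with TNF, against 827 and 364 CPM in KO cells at day 0. Values in WT cells were 2373 and 2230 CPM with TNF, against 1010 and 784 CPM at day 0. Its change in WT cells was 1.37 ± 0.48 (limma adjusted p = 0.305, and 0.0367 with the block), and with TNF it was lower in KO than in WT cells by a log2 difference of -1.64 ± 0.48 (0.264, and 0.0278 with the block). Slc48a1, a transporter of heme out of the phagolysosome, and Blvrb, a biliverdin reductase, were lower in KO than in WT cells with TNF only in the fit with the block (log2 differences -0.95 and -0.95, limma adjusted p = 0.0332 and 0.0278). With TNF in WT cells they passed only with the block too (adjusted p = 0.0166 and 0.0328). Alas1, which starts heme synthesis, had 226 and 229 CPM in KO cells with TNF, against 68.9 and 66.1 CPM in KO cells at day 0. WT libraries stood at 323 and 830 CPM with TNF, against 64.3 and 64.8 CPM at day 0. It rose in WT cells (2.99 ± 0.42, limma adjusted p = 0.0363), and in KO cells it passed with the block (1.75 ± 0.42; adjusted p = 0.0704 without it and 0.0160 with it). It was the only one of the 8 heme synthesis genes to pass in either genotype.

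Of 19 tested genes of mitochondrial iron import and iron-sulfur cluster assembly, 1 rose with TNF in KO cells (8 with the block) and 1 in WT cells (1 with the block), and none fell. Hspa9, the chaperone of cluster transfer and protein import, had 813 and 715 CPM in KO cells with TNF, against 351 and 322 CPM in KO cells at day 0 (1.18 ± 0.23, limma adjusted p = 0.0414). Isca1, a cluster assembly protein, had 47.0 and 44.5 CPM in KO cells with TNF, against 19.5 and 8.17 CPM in KO cells at day 0 (log2 change 1.81 ± 0.54, which passed only with the block, at a limma adjusted p of 0.00714, against 0.122 without it). Fdxr, the reductase that feeds electrons to cluster assembly, had 29.0 and 15.8 CPM in KO cells with TNF, against 11.8 and 4.66 CPM in KO cells at day 0 (log2 change 1.46 ± 0.70, with a limma adjusted p of 0.00706 with the block and 0.328 without it). Between genotypes with TNF, 6 of these genes were higher and 1 lower in KO cells with the block, against 5.53% and 3.75% of all genes, and none without it. The lower one was Slc25a37, mitoferrin, which imports iron into mitochondria. It had 61.5 and 60.9 CPM in KO cells with TNF, against 69.5 and 72.6 CPM in KO cells at day 0. In WT cells there were 197 and 239 CPM with TNF, against 69.7 and 67.5 CPM at day 0. It rose with TNF in WT cells (1.66 ± 0.21, limma adjusted p = 0.0256), and in KO cells with TNF it was lower than in WT cells (-1.82 ± 0.21; adjusted p = 0.0872, and 0.0111 with the block). At day 0, none of the 52 genes tested in these 4 lists passed limma, edgeR or DESeq2 between genotypes, and 0 had an unadjusted limma p under 0.05 (2 with the block), where edgeR called 0.00% and DESeq2 0.197% of all genes. By edgeR without the block, 4 of the 52 passed with TNF in KO cells and 0 in WT cells, against the 4.08% and 0.492% of all genes given above. With the block edgeR passed 21 and 15, against 25.2% and 9.54%, and DESeq2 passed 10 and 11, against 13.9% and 7.17%. The differences between genotypes in these counts were not tested.

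**Figure D5:**
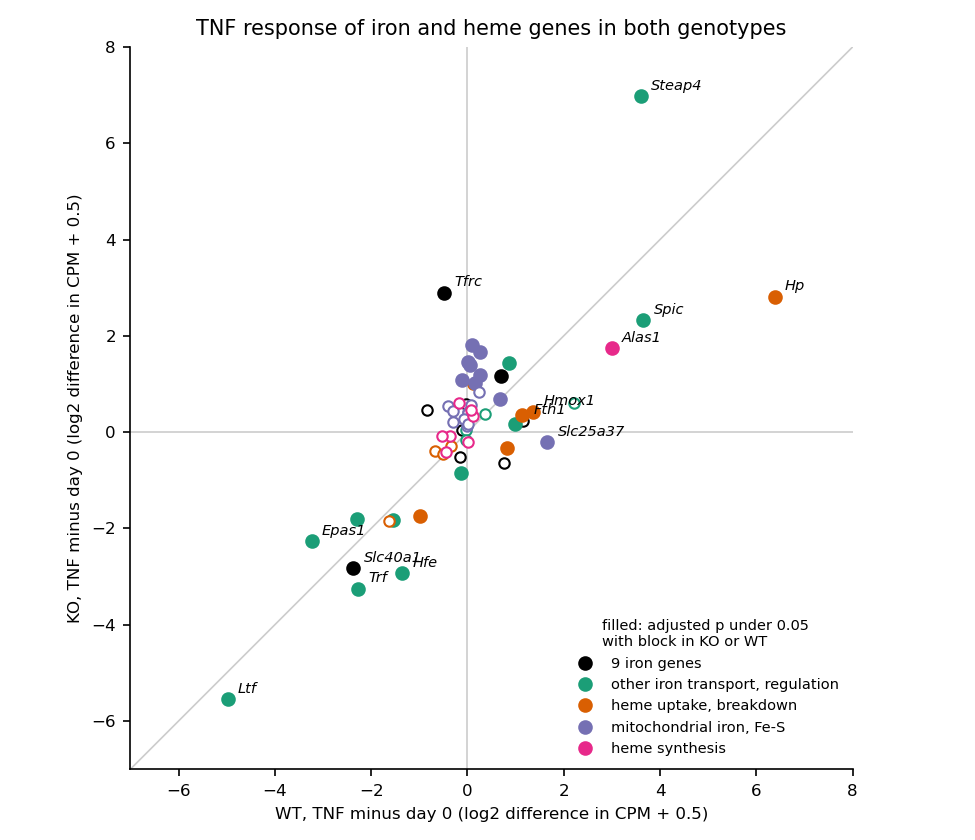
Log2 change with TNF in KO cells (vertical) against that in WT cells (horizontal) for the 9 iron genes and the other tested genes of iron and heme handling, coloured by list; filled points had an adjusted p under 0.05 with the block in KO or WT cells. Tfrc stood at 2.90 in KO and -0.49 in WT cells, and Hp at 2.81 in KO and 6.38 in WT cells. Of 19 mitochondrial genes, 8 rose in KO cells with the block and 1 without it, against 12.2% and 3.09% of all genes.

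Among 8676 genes with a mean of at least 10 CPM, those whose log2 values followed each of the 3 most variable members best over the 8 libraries were Cytip, Mmp13 and Pla2g15 for Slc40a1 (Pearson r 0.98, 0.94 and 0.94), Edem1, Efr3b and Kctd9 for Tfrc (0.96, 0.95 and 0.95), and Cbr3, Tmem110 and Mt2 for Fth1 (0.96, 0.96 and 0.95). These are descriptions over libraries that fall into 4 groups. Cytip, a scaffold protein of blood cells, had 20.0 and 27.7 CPM in KO cells with TNF, against 72.4 and 71.4 CPM in KO cells at day 0. WT cells had 7.83 and 14.7 CPM with TNF, against 23.4 and 32.7 CPM at day 0. Efr3b, a membrane protein that anchors a lipid kinase, had 48.0 and 97.2 CPM in KO cells with TNF, against 4.0 and 2.84 CPM in KO cells at day 0, and stood between 9.24 and 12.1 CPM in the 4 WT libraries. Mt2, a metallothionein, had 35.3 and 4.06 CPM in KO cells with TNF, against 7.90 and 0.622 CPM in KO cells at day 0. Values in WT cells were 130 and 39.4 CPM with TNF, against 24.1 and 1.41 CPM at day 0.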

How the data were processed

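Per the labels' protocols, libraries were made from poly-A transcripts of column-purified RNA with a NEBNext kit. The submitters' processing notes name fastp, HISAT2, HTSeq and edgeR with build mm10, without versions or settings. The authors deposited CPM, scaled to the reads counted in genes, in 1 table, in which 27 symbols had been turned into dates. Every CPM was a whole multiple of the value of 1 read (100% of values within 0.01), so reads were recovered for edgeR and DESeq2.

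The test was limma (lmFit, eBayes with trend, 2-sided) on log2(CPM + 0.5), for genes that reached 1 CPM in 2 or more libraries, with group as the only term and all 8 libraries sharing 1 spread (4 residual degrees of freedom, 3 with the block). That scale understates the change of low genes. A ± is the moderated standard error without the block, and 95% intervals come from the fit with it and are not adjusted. P-values were adjusted by Benjamini-Hochberg over the 12194 genes, separately in 5 contrasts. The tools were limma 3.58.1, DESeq2 1.42.0 and edgeR 4.0.16 in R 4.3.3. The fits were tested on simulated reads.

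In the fits with the block, libraries that share a replicate number were taken as paired. The main fit, which gave the ± values, did not use the pairing. The series design gives 2 independent experiments, the differences between replicates 2 and 1 correlated across genes in each of 6 pairs of groups (Pearson r 0.577 to 0.805), and the second principal component (32.9% of variance) separated the numbers. No label says that the number marks the experiment. Blocked values stand beside a member's result where they change its call.

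Members, gene lists and tests were chosen with earlier results of these data known. Named genes were the 9 members, Rbpj, some genes of each iron or heme list that passed without or with the block, and the 3 genes most alike to each of the 3 most variable members. The plan was up to 6 genes of a list by size of change. It was not followed in full: some genes that passed are not named, so the named ones are not a ranking. Positions and hairpins came from GENCODE M21 (GRCm38, the build called mm10), in which all 9 symbols were found. Promoter windows came from RefSeq (GRCm38.p6).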

Additional observations from a re-analysis of the deposited data

Results flagged for a closer look

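For 3 of the 9 genes, both replicates of KO cells moved with TNF in the direction opposite to both replicates of WT cells. The share of all tested genes that did so is not given here, so the count is not read as particular to these genes. Tfrc was higher with TNF in KO cells (log2 differences 2.12 and 3.67) and lower in WT cells (-0.26 and -0.72). The difference of the responses was 3.39 ± 0.63 (limma adjusted p = 0.641, 0.104 with the replicate block, and DESeq2 adjusted p = 0.00408). Steap3 was higher with TNF in KO cells (0.39 and 0.52) and lower in WT cells (-0.44 and -1.22), a difference of 1.28 ± 0.97 (limma adjusted p = 1.0, 0.122 with the block, and DESeq2 adjusted p = 1.0). Slc11a1 was lower with TNF in KO cells (-0.39 and -0.88) and higher in WT cells (0.55 and 0.98), a difference of -1.40 ± 0.54 (limma adjusted p = 0.850, 0.131 with the block, and DESeq2 adjusted p = 0.303). By limma none of the 3 differences passed, and DESeq2 passed that of Tfrc alone.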

How the results depend on the processing

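The number of iron genes past the threshold depended on the replicate block and on the tool, with DESeq2 run without the block. Numbers of iron genes given below with a library left out cover limma fits without and with the block together. With TNF in KO cells it was 1 by limma without the block and 3 by limma with it. It was 3 by DESeq2, 3 by edgeR with the block and 0 when limma fitted only the KO libraries. Leaving out 1 library gave 0 to 5. In WT cells it was 0, against 1 with the block, 2 by edgeR with the block and 0 to 2 with a library left out. Between genotypes with TNF it was 0, against 2 with the block, 1 by DESeq2, 0 by edgeR with the block, and 0 to 2 with a library left out. For the difference of the responses it was 0, against 1 by DESeq2. At day 0 it was 0 under every alternative run. Other pseudocounts (0.1 and 1), no filter or a filter at 5 CPM left all 5 counts as they were. Rescaling with the block, chosen after seeing the data, gave 3 (median-ratio) and 4 (quantile) with TNF in KO cells, 3 and 3 in WT cells (Slc40a1, Slc11a2 and Steap3), and 1 and 2 between genotypes with TNF. Among the 9 genes, the block changed no call other than those given beside the results. The share of all genes past the threshold moved too: with TNF in KO cells it was 0.582% when only the KO libraries were fitted, 7.33% to 25.2% with the block and a library left out, and 26.3% (median-ratio) and 28.4% (quantile) rescaled with the block. In WT cells it was 2.04% to 11.3% and 9.54% and 11.4%, and between genotypes with TNF 0.00% to 9.59%, 8.76% and 10.8%, with 4.86% by DESeq2. Among small differences that changed sign, the log2 change of Aco1 with TNF in WT cells was 0.084 by DESeq2, 0.074 by edgeR, 0.065 by edgeR with the block, 0.079 after median-ratio rescaling with or without the block and 0.048 after quantile normalization with or without the block. That of Ireb2 was 0.0038 by DESeq2, and its genotype difference with TNF was -0.021 by DESeq2 and -0.013 by edgeR. With a library left out, the log2 change with TNF in KO cells ran from -0.082 to 0.56 for Fth1, -1.22 to 0.19 for Ftl1, -0.24 to 0.32 for Ireb2 and -0.15 to 1.05 for Steap3. That in WT cells ran from -0.25 to 0.19 for Aco1, -0.70 to 0.38 for Ftl1 and -0.51 to 0.28 for Ireb2. KO against WT at day 0 ran from -0.17 to 0.28 for Aco1, -0.68 to 0.36 for Fth1, -0.98 to 0.43 for Ftl1, -0.50 to 0.30 for Ireb2 and -0.16 to 0.33 for Slc11a2. KO against WT with TNF ran from -1.30 to 0.057 for Ftl1, -0.20 to 0.31 for Ireb2 and -0.22 to 1.36 for Steap3. The difference of the responses ran from -1.05 to 0.36 for Ftl1, -0.24 to 0.55 for Ireb2 and -1.58 to 0.69 for Slc40a1. The cause of these changes was not tested. With 2 libraries a group, differences within the replicate spread cannot be resolved.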

Other observations

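Steap4 and Spic, also of the iron list, had large but uneven changes. Steap4, a metalloreductase of the family of Steap3, had 10.5 and 525 CPM in KO cells with TNF, against 0.107 and 0.0888 CPM in KO cells at day 0, and 2.22 and 17.3 CPM in WT cells with TNF, against 0.109 and 0.0371 CPM in WT cells at day 0. Almost all of its signal thus came from 1 library, and its change in KO cells passed only with the block (limma adjusted p = 0.0759 without it and 0.0128 with it). Spic, a transcription factor of iron-recycling macrophages, had 43.2 and 76.0 CPM in KO cells with TNF, against 3.68 and 31.0 CPM in KO cells at day 0, and 8.86 and 50.2 CPM in WT cells with TNF, against 0.255 and 3.49 CPM in WT cells at day 0. Its change with TNF passed only with the block (limma adjusted p = 0.402 without it and 0.0162 with it in KO cells, and 0.307 and 0.00809 in WT cells). Its KO level at day 0 was above the WT level by a log2 difference of 2.73, which did not pass (limma adjusted p = 1.0, and 0.274 with the block).

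The RBP-J core motif GTGGGAA, or TTCCCAC on the other strand, was looked for in windows of 250 bases before to 50 bases after each start site. It was present in 6.38% of 32851 windows and in 2 of the 12 windows of the 7 members that have one, Slc11a1 and an upstream start site of Fth1. The Slc11a1 match lies 5 bases after the start site. A match is a description of the letters, and it says nothing about binding.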
